A study of Mus musculus with 3 samples.

Results

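The 4 Hox clusters were examined for open chromatin in natural killer cells of the mouse. Members were the protein-coding genes named Hoxa, Hoxb, Hoxc or Hoxd followed by a number, 39 of 21938 protein-coding genes in the mm10 annotation (GENCODE release M21). The Hoxa cluster held 11 of them on chromosome 6, Hoxb 10 on chromosome 11, Hoxc 9 on chromosome 15 and Hoxd 9 on chromosome 2. Each region ran from the first to the last gene of a cluster with 20 kb on each side, which gave 145, 214, 156 and 137 kb for Hoxa, Hoxb, Hoxc and Hoxd. Peaks of open chromatin in these regions numbered 23, 49 and 46 in replicates 1, 2 and 3, of 40484, 84564 and 81854 in the whole libraries.

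Hox genes encode homeodomain transcription factors that give cells their position along the body axis. They lie side by side in the order in which they act along that axis, with paralogue groups numbered from the anterior to the posterior end. In blood, several Hoxa and Hoxb genes are active in stem and progenitor cells and are turned down as cells mature, Polycomb proteins keep the clusters silent where they are not used, and CTCF, a zinc-finger protein that organises chromatin loops, binds between the genes.

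The 3 libraries formed 1 group, natural killer primary cells of male B6CASTF1/J mice, an F1 hybrid strain, at 2 months of age. They share 1 donor label but not a biosample label, and p-values measure only the spread between these samples, which may be technical. DNase-seq maps where DNase I cuts, which marks accessible sites (peaks) and, within them, short protected stretches (footprints). The deposited signal of a peak is given here as its percentile among all peaks of its library, because the scale differed between libraries. With 1 group, comparisons were made between the clusters, and between the Hox genes and all genes or the genome.

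Replicate 1 was the sparser library throughout, with 101990 footprints against 239483 and 222990 in replicates 2 and 3, and read depth is unknown from these files. Of 10 natural killer cell markers, 8 had an open promoter in all 3 libraries, against 52.5% of all protein-coding genes, led by Il2rb and with Klrk1 lowest of the 8. Of 10 B cell markers, 7 were open in all 3. The median percentile of the open ones was 34.5 in replicate 1, 84.3 in replicate 2 and 78.6 in replicate 3. For the open natural killer cell markers it was 78.5, 79.4 and 87.6, in replicate 2 below that of the B cell markers. Pax5, which fixes B cell identity, stood at the 32.8th, 96.1st and 92.4th percentile. T cell markers were open in all 3 libraries in 3 of 10 cases, monocyte and macrophage markers in 1 of 10, and stem and progenitor markers in 4 of 10. These shares of 30%, 10% and 40% were below that of all genes under this rule. In replicates 2 and 3 taken singly, 60.1% and 59.3% of all genes were open. There, natural killer cell markers stood at 100% and 100%, and B cell markers at 100% and 90%. T cell markers stood at 80% and 60%, and stem and progenitor markers at 70% and 60%. Monocyte and macrophage markers stood at 40% and 30%. Open Hox promoters were fewest in replicate 1, and each of the 7 open in all 3 libraries had its lowest percentile there. Over the Hox promoters open in each library, the median percentile was 68.1, 65.6 and 60.4 in replicates 1, 2 and 3, and the part of other cells in the Hox results was not tested.

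Peaks of the 3 libraries that shared at least 1 bp were joined into 57 Hox sites, numbered along each chromosome within a cluster, and 21 of them were found in all 3 libraries. At 13 of those 21 sites, footprints of all 3 libraries covered at least 1 common base, in stretches of 3 to 29 bp, and at 8 sites they shared none. The stretches below come from the 3 strongest sites of each cluster where the shared stretch reached 9 bp, and show which bases were protected in every library. The sequences are of the reference genome (RefSeq, GRCm38), 5′ to 3′ on the strand of the cluster's Hox genes, which is minus for Hoxa and plus for the others. Capitals mark the shared stretch.

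Hoxa site 6, chr6:52221796-52221825: aaaTTCCAGGAGATGGCAGTGTGGCTCcac
Hoxa site 10, chr6:52257118-52257146: cgtAGATCAAGGGCGCCACCTCGTGTtga
Hoxb site 10, chr11:96278943-96278971: agtggccgcTAGATGGCATCcttgctcca
Hoxb site 12, chr11:96294691-96294720: gttTGCTGCCATCTACCGTCCGTTCGGgga
Hoxb site 13, chr11:96303239-96303267: caatcgccGGGAGGTGGCGCGctctgctc
Hoxc site 2, chr15:102966565-102966593: gagGCAGCTGCTAGGTGGCGCTGTTActc
Hoxc site 5, chr15:102987588-102987616: AGTGAACGCGAGGTGGCGCTGTTGCTCAA
Hoxc site 7, chr15:102999285-102999313: ccaggcctcaCACATGCGCagtgtgagcc
Hoxd site 8, chr2:74715913-74715941: agctttgtCCAGGAGGAGGCGctgtagga

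Most Hox promoters were closed. Promoters were taken as 500 bp on either side of each annotated start site, and were called open if they shared 1 bp or more with a peak. Of the 39 Hox genes, 7 were open in all 3 libraries (17.9%), against 52.5% of all protein-coding genes. Among the 7 were Hoxa4, Hoxa7, Hoxa10, Hoxb4, Hoxb5 and Hoxc10. In at least 1 library 18 were open (46.2%), against 61.7% of all genes, and 21 had no promoter peak in any library. By library, 7, 13 and 16 Hox promoters were open in replicates 1, 2 and 3, against 52.8%, 60.1% and 59.3% of all protein-coding genes. Without replicate 1, the count of Hox genes open in the remaining libraries was 11, against 57.9% of all genes.

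The gap was wider among CpG-rich promoters, which in most tissues are open. Of 20 Hox genes with a CpG ratio (observed over expected) above 0.6, 4 were open in all 3 libraries (20%), against 82.6% of CpG-rich genes, and 8 in at least 1 library (40%), against 90.2%. The Hoxa5 promoter, with a CpG ratio of 0.996, the highest of the 39, had no peak in any library. Those of Hoxa13 (0.945), Hoxd8 (0.921) and Hoxd13 (0.905) had none either.

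**Figure D1:**
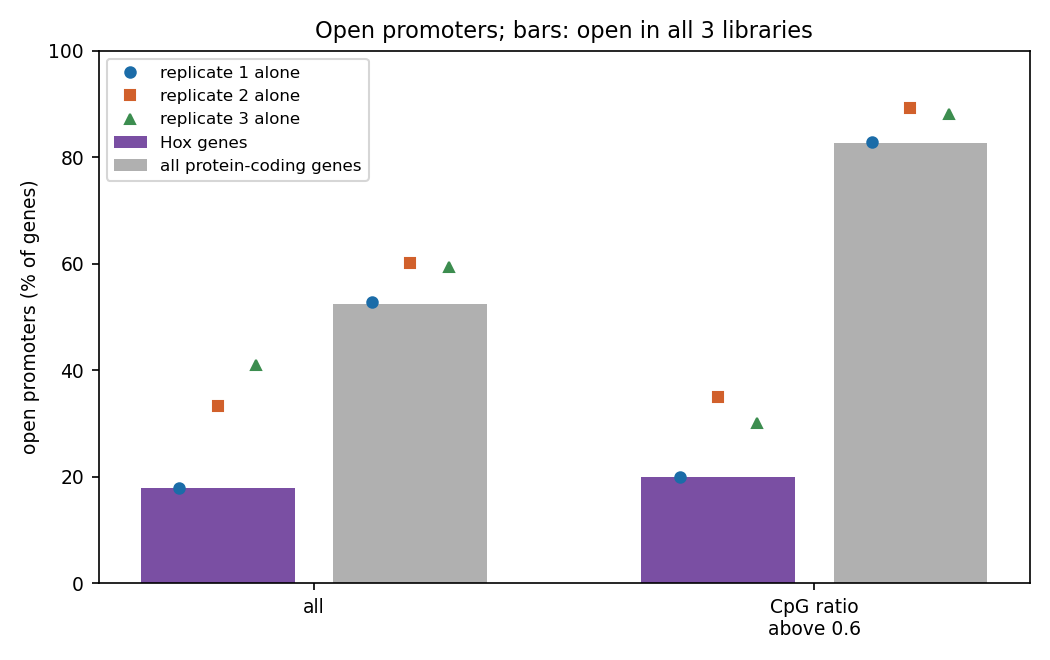
Share of promoters that were open (% of genes), for Hox genes and all protein-coding genes, over all genes (left) and over genes with a CpG ratio above 0.6 (right). Bars give the share open in all 3 libraries and points the share in each library alone. The Hox bars stand at 17.9% and 20%, below the bars of all genes at 52.5% and 82.6%.

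The clusters differed in how many promoters were open. In Hoxa 4 of 11 genes were open in all 3 libraries, in Hoxb 2 of 10, in Hoxc 1 of 9 and in Hoxd 0 of 9. The place of Hoxc rested on replicate 1. Without it, 4 of 11 Hoxa, 3 of 10 Hoxb, 4 of 9 Hoxc and 0 of 9 Hoxd genes were open in the remaining libraries. In at least 1 library, 6 of 11 Hoxa, 5 of 10 Hoxb, 5 of 9 Hoxc and 2 of 9 Hoxd genes were open. At most 1 Hoxd promoter was open in any library, Hoxd9 at the 31.5th percentile in replicate 2 and Hoxd1 at the 27th in replicate 3. Both are low values, and the other 7 Hoxd genes had no promoter peak. By paralogue group, 3 of 12 genes in groups 1 to 4, 2 of 11 in groups 5 to 8 and 2 of 16 in groups 9 to 13 were open in all 3 libraries. This order did not hold in replicate 2 alone, with 3 of 12, 4 of 11 and 6 of 16. In at least 1 library it was 7 of 12, 4 of 11 and 7 of 16. These counts are small and were not tested.

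Hoxc10, a posterior gene that acts in the hindlimb and lumbar region, had the strongest promoter of the 39. Its peak lay 96 bp upstream of the start at the 79.7th, 90.6th and 91.2nd percentile in replicates 1, 2 and 3 (mean 87.1 ± 6.48, SD, n = 3). Hoxa7 followed at 76.5, 84.1 and 82.4, with the smallest spread of the 7. Hoxa4 stood at 69.2, 84.8 and 86.7. Among open promoters of all protein-coding genes, the medians were 84.3, 90.5 and 90 in replicates 1, 2 and 3. Only Hoxc10, in replicates 2 and 3, was above them among the 39 members.

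Hoxa10, a gene of blood progenitors and of the uterus, had promoter peaks at the 68.1st, 83.7th and 80.5th percentile. Hoxb5, which marks long-term blood stem cells in the mouse, stood at 65.2, 78.2 and 77.5. Hoxb4, known for expanding blood stem cells when overexpressed, stood at 44.3, 65.6 and 60.6, with its peak 274 to 351 bp from the start. In Hoxa10, Hoxb5 and Hoxb4 alike, replicate 1 was the lowest of the 3.

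The other 11 genes with a promoter peak were open in 1 or 2 libraries, and in none of the 11 was replicate 1 among them. Hoxb9 was open in replicates 2 and 3 at the 56.1st and 71.1st percentile, and Hoxc9 at 52.4 and 60.3. Hoxc6 was open at 35.6 and 51.9 in the same libraries, and Hoxc5 at 47.1 and 25.2. Hoxa3 (57.8) and Hoxa9 (52.6), a gene that drives leukaemia when overexpressed, were open in replicate 3 alone. Several of these genes overlap, Hoxc5 with Hoxc6 and Hoxc9 and Hoxa3 with Hoxa4 and Hoxa5 in the longest gene models, so a peak can count for more than 1 of them.

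**Figure D2:**
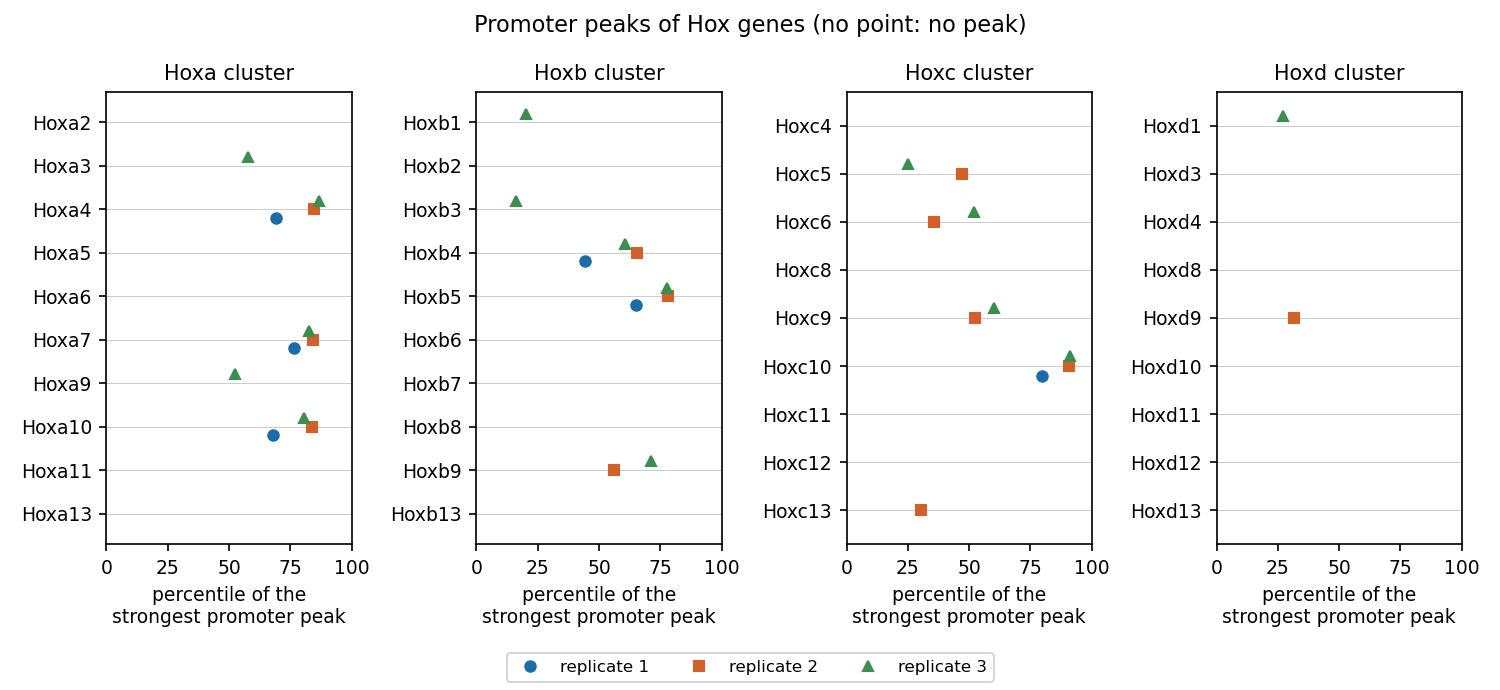
Percentile of the strongest promoter peak of the Hox genes in each library, with genes down the page by paralogue group. A missing point means no peak. Genes with 3 points lie in Hoxa, Hoxb and Hoxc, and Hoxd has 2 single points at 31.5 and 27.

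Away from promoters the clusters were not empty. Of the 57 Hox sites, 20 lay at a promoter (35.1%), against 21.8% of all merged sites, with 10 in exons, 9 in introns and 18 between genes. In Hoxa 7 of 12 sites were at promoters and in Hoxd 2 of 14. Of the 21 sites found in all 3 libraries, 7 were at promoters (33.3%), against 37.6% of such sites in the genome. Hox sites found in all 3 libraries made up 36.8%, against 35.3% over the genome. Another 19 were found in 2 libraries, 17 of these in replicates 2 and 3, and 17 were found in 1.

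The strongest sites of Hoxa were at the Hoxa7 promoter (site 6), at the Hoxa4 promoter (site 2) and in the stretch between Hoxa11 and Hoxa13 (site 10). Site 10 lay 3672 bp from the nearest Hoxa13 start and stood at the 66.1st, 87.6th and 83.7th percentile. It had a GC content of 43.3%, against 59.3% at site 6 and 70.6% at site 2.

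In Hoxb the 3 strongest sites were site 10, between Hoxb9 and Hoxb8, site 12, in a Hoxb6 intron, and site 13, at the Hoxb5 promoter. Site 10 stood at the 72.6th, 88.6th and 87.6th percentile, and site 12 at 76.9, 83.6 and 82.1. Sites 10 to 16 formed a run through the middle of the cluster, from Hoxb9 to Hoxb4, in which 6 of 7 sites were found in all 3 libraries. At the Hoxb3 to Hoxb1 end, the 4 sites found there each had a peak in 1 library, none above the 30.4th percentile.

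In Hoxc the strongest were site 2, at the Hoxc10 promoter, site 5, between Hoxc9 and Hoxc8 inside the long Hoxc5 model, and site 7, in a Hoxc6 intron. Site 5 stood at the 80.9th, 88.4th and 88th percentile and was the highest Hox peak of replicate 1. No other Hoxc site was found in all 3 libraries. A stretch of 45.5 kb with Hoxc11, Hoxc12 and Hoxc13 in it, from chr15:102920984-102966520, held no peak in any library. It began directly after a peak of replicate 2 alone, 120 bp from the Hoxc13 start and at the 30.4th percentile. The longest stretches between sites in Hoxa, Hoxb and Hoxd were 33.4, 31.4 and 30.8 kb.

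In Hoxd the strongest were site 11, between Hoxd3 and Hoxd1, site 8, in an intron shared by Hoxd3 and Hoxd4, and site 7, between Hoxd9 and Hoxd8. Site 11 stood at the 52.9th, 80.3rd and 85.6th percentile, site 8 at 55.7, 80 and 82.2, and site 7 at 35.3, 67.8 and 64.2. None of them lay at a promoter. Sites 1 to 4 lay within Evx2, the neighbouring homeobox gene, none above the 68th percentile. In sites 7, 8 and 11, replicate 1 was well below the others.

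**Figure D3:**
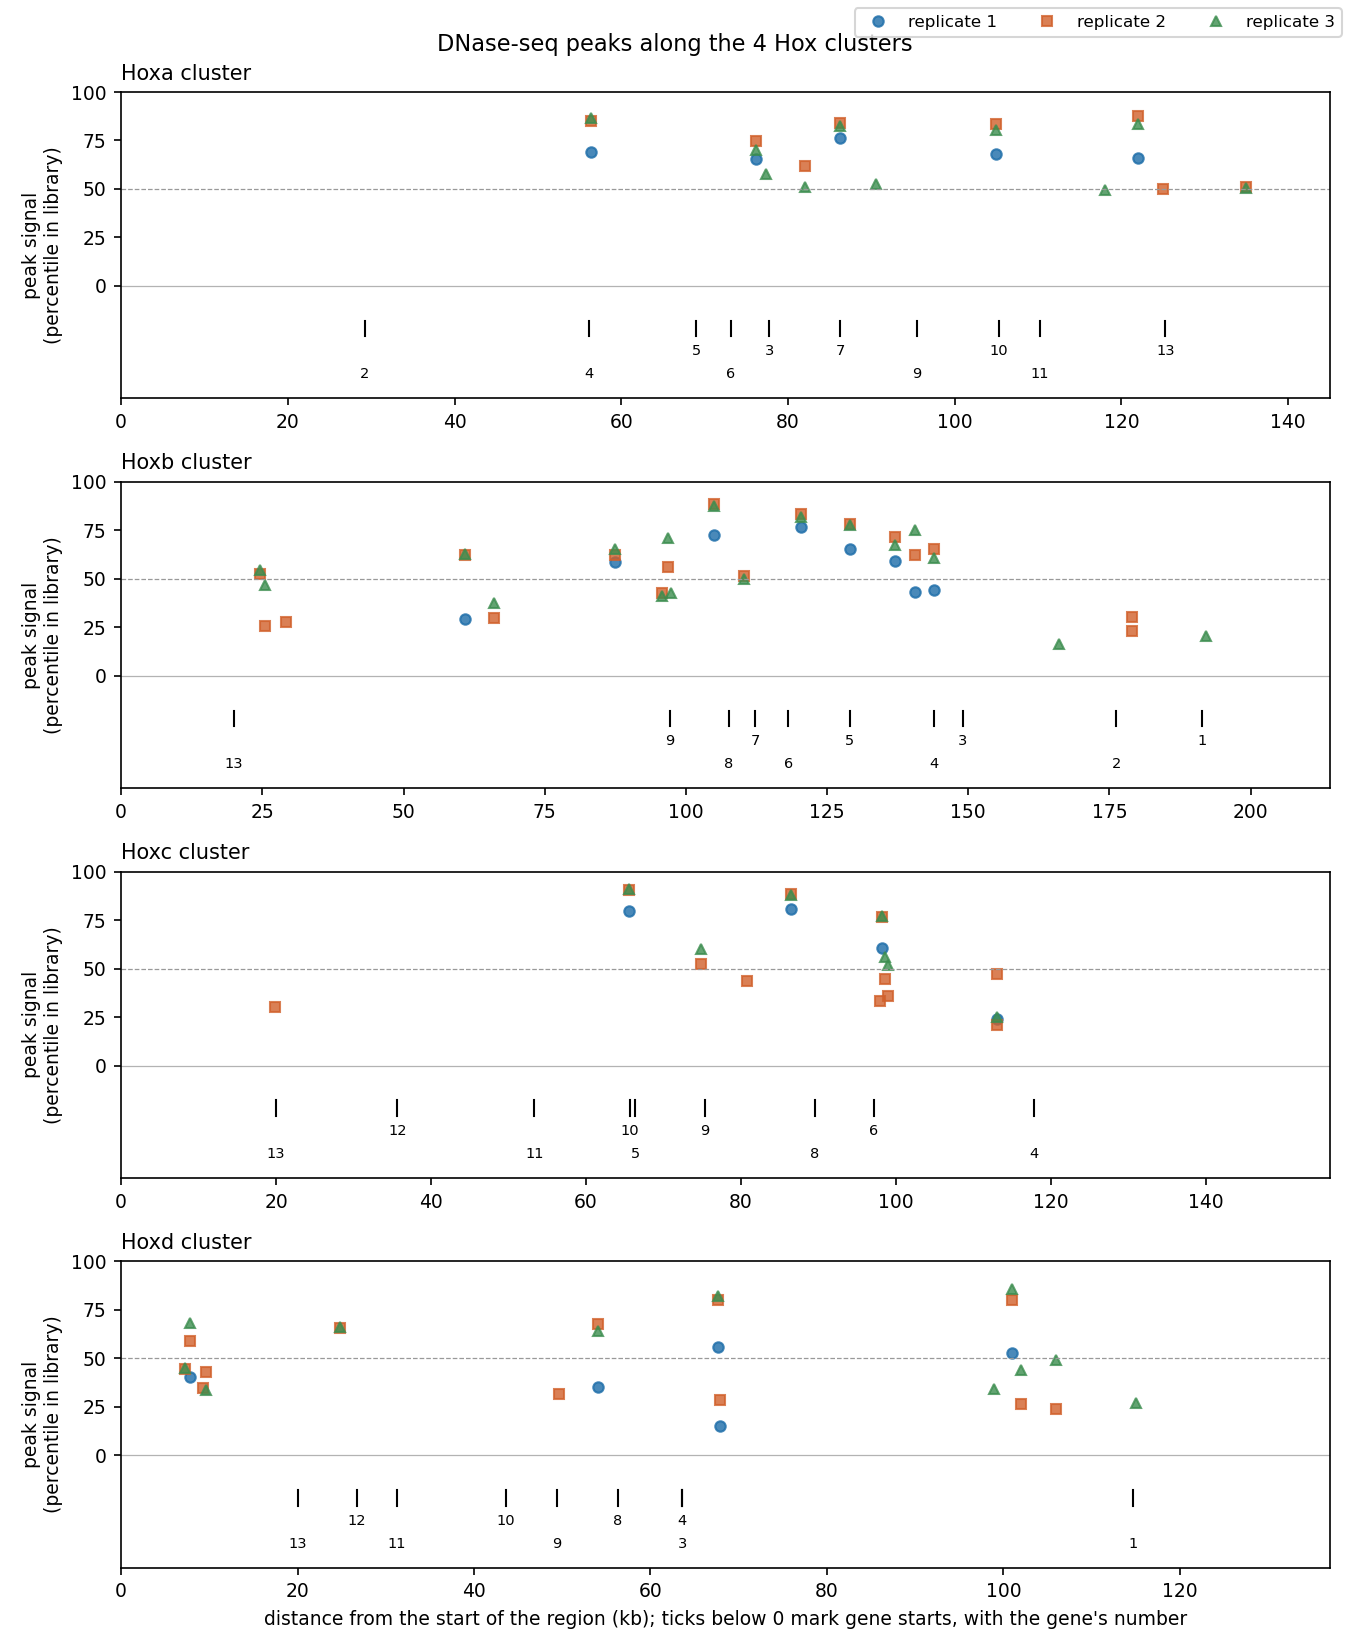
Peak signal, as percentile in its library, along each Hox region (kb from the region's start), with gene starts and gene numbers below. The dashed line is the 50th percentile. The stretch before Hoxc10 holds 1 low point, and no Hox peak lies above 91.2.

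Median percentiles of all peaks in a cluster averaged 69.4 ± 4.35 in Hoxa, 58.5 ± 2.3 in Hoxb, 58.3 ± 12.9 in Hoxc and 44.5 ± 4.55 in Hoxd (SD, n = 3 libraries). Hoxa was above Hoxd in each library, at 67.1, 74.5 and 66.8 against 40.4, 43.7 and 49.4, with no overlap. Replicate 1 held 4 to 8 peaks per cluster, so its medians rest on few values.

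The clusters held more peaks per length than the genome. All 4 had, over their joint length, 3.53, 7.52 and 7.06 peaks per 100 kb in replicates 1, 2 and 3, against 1.54, 3.21 and 3.1 over the autosomes and X. That is 2.3, 2.34 and 2.27 times the genome in the same libraries. The Hist1 histone gene cluster was above this joint density, at 5.22, 8.14 and 7.84. The smaller Hist2 histone cluster was further above, at 17.7, 19.9 and 21. Taken singly, Hoxd (8.77 and 8.04) was above Hist1 in replicates 2 and 3, and Hoxb (7.95) in replicate 3. The protocadherin cluster, another family of neighbouring genes, was below the Hox clusters, at 0.63, 1.68 and 1.58. Peaks were unevenly spread over the genome. Of its windows of 100 kb, 59.2%, 44% and 44% held no peak, and the 90th percentile was 5, 10 and 10 peaks.

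Between the clusters, peak density averaged 5.97 ± 1.73 per 100 kb in Hoxa, 6.54 ± 2.43 in Hoxb, 4.71 ± 2.25 in Hoxc and 6.82 ± 2.77 in Hoxd (SD, n = 3). Hoxb exceeded Hoxc in 3 of 3 libraries, by 1.84 ± 1.41 per 100 kb, and Hoxc was below Hoxd in 3 of 3, by a difference of -2.11 ± 1.28. In a two-sided exact sign-flip permutation test over the 3 libraries both gave p = 0.25, the smallest that 3 libraries allow, and 0.75 after Benjamini-Hochberg adjustment over 6 pairs. No pair could reach a threshold of 0.05 in this design, and the order of Hoxa, Hoxb and Hoxd turned under other peak lists and flanks.

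**Figure D4:**
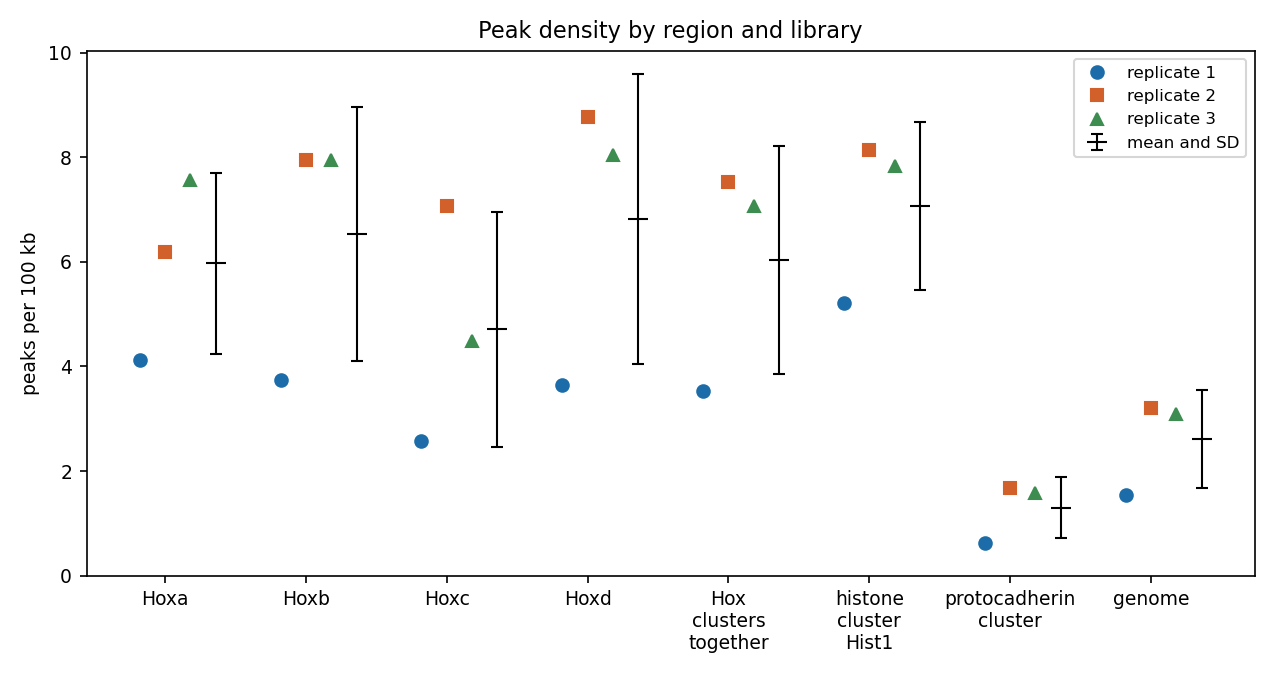
Peaks per 100 kb in each Hox cluster, the 4 clusters together, a histone and a protocadherin gene cluster and the genome. Points are libraries and bars the mean with SD (n = 3). The Hox clusters together lie at 6.03 on average and the genome at 2.62, while the clusters overlap with each other.

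Footprints were denser than in the genome by a smaller margin. The clusters together held 37, 104 and 117 footprints, or 5.68, 16 and 17.9 per 100 kb, against 3.87, 9.09 and 8.46 in the genome. Within peaks, there were 1.57, 1.82 and 2.24 footprints per peak, against 2.14, 2.27 and 2.21. In replicates 1 and 2 the Hox peaks thus held fewer than the average peak, and in replicate 3 about as many. Bases at a cut-rate false discovery rate of 0.05 or less covered 0.796%, 1.88% and 2.02% of the clusters, against 0.611%, 1.23% and 1.17% of the genome. Hox peaks were also somewhat narrower, with medians of 180, 180 and 187 bp against 220, 200 and 200 bp.

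Matches to a CTCF consensus (CCA, 2 bases of any kind, AG, 2 bases of any kind, GGC), searched on both strands, lay in 4 of 57 Hox sites (7.02%), against 12.1% of all merged sites. Among sites found in all 3 libraries, 3 of 21 held it (14.3%), against 16.2%. At promoters the share ran the other way among sites found in all 3 libraries, with 2 of 7 Hox sites (28.6%), against 5.38% of such sites in the genome. Away from promoters it was 1 of 14 (7.14%), against 22.7%. These counts are small and were not tested. The 4 matches are shown on their own strand with 9 bases on each side and the consensus match in capitals.

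Hoxa site 6, chr6:52221800-52221829, minus strand: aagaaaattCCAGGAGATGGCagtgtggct
Hoxa site 8, chr6:52240532-52240561, minus strand: tcgcagccgCCACGAGATGGCgcactcccg
Hoxd site 5, chr2:74673169-74673198, minus strand: gccaaacgcCCAGGAGATGGCgagcgtgct
Hoxd site 8, chr2:74715912-74715941, plus strand: gagctttgtCCAGGAGGAGGCgctgtagga

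Each of these matches was covered by a footprint over all 12 of its bases in every library with a peak there, 3 of 3 in replicate 1, 4 of 4 in replicate 2 and 4 of 4 in replicate 3. Over the genome, 56.3%, 77.7% and 75.8% of consensus matches in peaks were at least 50% inside a footprint. Hoxd site 5 had no peak in replicate 1. No Hoxb or Hoxc site held a full match, the strongest site of all, at Hoxc10, included. The last part of the consensus (AG, 2 bases of any kind, GGC) can be read, on either strand, in stretches shown above. Among those without a full match, these are the shared stretches of Hoxa site 10, of Hoxb sites 10, 12 and 13 and of Hoxc sites 2 and 5. How often this part occurs over the genome was not counted. A stricter CTCF form matched 0 of 57 sites, against 5.88% of all merged sites. After these results were seen, a CTCF matrix was learned from footprinted matches to the first, looser consensus in the genome, Hox sites left out. With it, 1 Hox site passed (Hoxd site 7, 1.75%), against 9.59% of all merged sites. Among sites found in all 3 libraries, this was 1 of 21 (4.76%), against 13.2%. A second threshold for that matrix gave the same count of 1, which makes 4 CTCF searches in all. The 2 thresholds lay close together, at matrix scores of 17.4 and 17.2, so the second search adds little. A sequence without a match says only that these letters are not in the window.

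Of the other motifs, the GC box GGGCGG lay in 19 Hox sites (33.3%), against 19.9% of all merged sites, but in 5 of the 21 sites found in all 3 libraries (23.8%), against 36.8%. The RUNX motif TGTGGT lay in 10 sites (17.5%), against 22.9%, and the ETS motif CCGGAAG in 6 (10.5%), against 5.2%. Among sites found in all 3 libraries the ETS motif lay in 1 of 21 (4.76%), against 10.5%. MEIS motifs (TGACAG), bound by cofactors of Hox proteins, lay in 4 (7.02%), against 17.6%, and PBX-HOX motifs (TGATTNAT) in 1 (1.75%), against 1.66%. The CCAAT box lay in 16 (28.1%), against 22%, the CRE motif TGACGTC in 3 (5.26%), against 1.97%, and the E-box CAGCTG in 3 (5.26%), against 15.7%. The YY1 motif lay in 1 (1.75%), against 4.24%, and the NRF1 and octamer motifs in 0, against 1.92% and 3.19%. These 12 motifs were not tested against each other. At least 50% inside a footprint were 1 of 7, 5 of 21 and 5 of 21 GC box matches in Hox peaks of replicates 1, 2 and 3, against 36%, 46.5% and 45.4% in the genome. For RUNX the counts were 0 of 5, 0 of 9 and 0 of 10, against 10.3%, 17.3% and 19%.

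The genes that work with Hox proteins or on Hox clusters were mostly open, against 52.5% of all protein-coding genes and 82.6% of CpG-rich ones. The median CpG ratio was 0.718 in the Polycomb genes and 0.806 in the boundary factors. It was 0.466 in the HOX cofactors and 0.303 in the activators and erasers. Of 9 HOX cofactors, 7 were open in all 3 libraries, led by Pknox1 (97.1, 99.2 and 99.1) and Pbx3 (95.5, 97.1 and 97.2). Meis2 and Pknox2 had no promoter peak in replicate 1. All 23 Polycomb genes were open in all 3, led by Pcgf1 (mean 99.5) and Pcgf3 (98.3), subunits of Polycomb repressive complex variants. Of 9 activators and erasers 8 were open in all 3, with Mllt1 and Dot1l highest, and all 9 boundary factors were, with Smc3 and Maz highest.

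In all 3 libraries 17.9% of Hox genes were open, against 18.2% of 11 related homeobox genes that are not members, and in at least 1 library 46.2%, against 18.2%. The 2 related genes with an open promoter were Evx1 (mean 51.1) and Gsx1 (35.9), and the shares were not tested. Cdx1, Cdx2, Cdx4, Evx2 and Gbx1 were among the 9 without a promoter peak. Evx1 lies 52.6 kb beyond Hoxa13 and Evx2 8.75 kb beyond Hoxd13, as the next protein-coding genes. Evx2 thus overlaps the 20 kb flank of the Hoxd region. On the other side of Hoxa, Skap2, an adaptor of immune cells 143 kb away, stood at the 99.2nd, 99.1st and 99.4th percentile. Beside Hoxc, Calcoco1 (mean 92) and Smug1 (83.3) were open in all 3 libraries, and beside Hoxd so was Mtx2 (60.5). Beside Hoxb, Skap1 (34) was open in all 3, and Ttll6 in replicates 2 and 3.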

How the data were processed

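DNase-seq of 3 libraries of 1 group was analysed from the authors' lists, called per library on mm10. The aligner and both callers were not given in the sources used here. The deposited peak lists give a signal per peak in column 7, which was ranked within its library; of the 2 lists per library the larger was used. The deposited footprint lists hold the constant 0.01 in their score column, which was not used. The authors' cut-rate intervals carry a q-value (false discovery rate). Everything else was computed in Python 3.11.15 with NumPy 2.4.6, pandas 2.3.3 and pysam 0.24.0, from GENCODE M21 and the RefSeq GRCm38.p6 sequence, with 0 intervals past a chromosome end. The CpG ratio of a gene is the median over its start sites. Overlap, motif and sign-flip code was tested on simulated data. The members, lists and motifs were chosen with earlier results of these data known. All members could be named. Sites chosen by strength were the 3 of each cluster with the highest mean percentile among those in all 3 libraries. Sites with a CTCF match and runs of neighbouring sites were named as well. The CTCF matrix, its second threshold, the shared footprint stretches with their 9 bp minimum, and start sites of coding transcripts were added after seeing the data. Values of 1 member and 1 marker are not reported here, in text or figures, though both are in the counts.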

Additional observations from a re-analysis of the deposited data

How the results depend on the processing

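The share of open Hox promoters was below that of all genes in each of the 12 settings tried, leaving out each replicate included. Counts of open Hox promoters were 5 to 9 with other promoter widths, the stricter list, the better-scoring 50% of peaks, other overlap or start-site rules. The count was 18 where 1 library sufficed, and 7 to 11 with 1 replicate left out. Hoxb4 was among the genes no longer open in all 3 libraries with the stricter list, and it had no promoter peak within 250 bp of its start. Peaks per 100 kb were 3.58 with the stricter list and 3.84 with the better-scoring 50%, and coverage was 0.885% at a false discovery rate of 0.001, as follows from taking fewer intervals. Relative to the genome, peak density was 1.82 to 2.94 times. CTCF counts were 0 for the strict form and 1 for the learned matrix at both of its closely spaced thresholds.

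Differences between clusters turned as follows, with no p below 0.25. For peaks, Hoxa minus Hoxb was 0.234 (stricter list) and 1.46 (better 50%). Hoxa minus Hoxd was 0.713 (no flank), 0.476 (stricter list) and 2.58 (better 50%). Hoxb minus Hoxd was 1.16 (no flank), 0.977 (50 kb), 0.241 (stricter list) and 1.13 (better 50%). With 1 replicate left out, Hoxa minus Hoxb ran from -1.06 to 0.0076 and Hoxa minus Hoxd from -1.52 to 0.00379. For footprints, Hoxa minus Hoxb was 0.423 (no flank), Hoxa minus Hoxd 2.98 (no flank) and 0.873 (50 kb), Hoxb minus Hoxd 2.56 (no flank), 1.59 (50 kb) and 0.995 (inside peaks), and Hoxc minus Hoxd 0.285 (no flank). With 1 replicate left out, Hoxa minus Hoxb ran from -0.796 to 1.08 and Hoxb minus Hoxd from -3.97 to 0.46. The cause was not tested. Clusters were compared within libraries, and with 1 group no pairing of samples between groups arose. Read depth is unknown, and with 3 libraries that share a donor label the spread may be technical.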
